A study of Homo sapiens with 26 samples.

Results

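The glutathione and thiol redox genes are 41 genes chosen by name that make and use glutathione, reduce protein thiols and remove peroxides, and 40 of them were measured among 33297 tested features, of which 19775 carried a gene symbol. The remaining member, PRDX5, had no probe-set with a single symbol and was not analysed here. The data are 26 Affymetrix expression arrays of untreated, established human B-cell cancer cell lines, with 1 array per line, so that the line is the replicate. The DLBCL group holds 14 lines, of which 13 are labelled diffuse large B-cell lymphoma and 1, MC-116, undifferentiated lymphoma. The MM group holds 12 lines, of which 11 are labelled multiple myeloma and 1, AMO-1, plasmacytoma. All lines grew without drug in RPMI or IMDM with serum, at 10% to 20%. OCI-Ly3 alone had human serum and 55 µM 2-mercaptoethanol, itself a thiol, in its medium. The label of SU-DHL-8 alone lists 2 mM L-glutamine in the medium. KMS-12-BM and KMS-12-PE are sister lines. Each line stands for the clone that grew out in culture, and no normal B cells or plasma cells serve as a reference. The markers followed the labels, as the B-cell factor PAX5 lay between 10.17 and 11.56 in DLBCL and between 3.35 and 7.15 in MM lines, and all 5 plasma cell markers were higher in MM lines. No T cell, NK cell, myeloid or stromal marker passed the test, and of 2 erythroid markers HBB was higher in MM lines, with a mean of 6.79 against 6.64. Values are on the log2 scale, and a level is compared between lines only, because probe-sets of different genes differ in brightness.

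Glutathione is a small thiol that cells build from glutamate, cysteine and glycine, and it is kept reduced at the expense of NADPH. Glutathione peroxidases spend it on peroxides, and glutathione S-transferases (GSTs) couple it to reactive molecules, among them the activated form of cyclophosphamide. Thioredoxins and peroxiredoxins form a parallel chain of thiol reactions, and the factor NRF2, held back by KEAP1, switches on many genes of both chains. Plasma cells are known for their heavy load of disulfide bond formation in secreted antibodies.

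A gene was called at background in a line when its value lay under 7.5, the 95th percentile of 33 genes of other tissues, and on when it was at least 3 log2 units above that level. By this rule 8 of the 40 members were at background in some lines and on in others, namely GSTP1, GSTO1, MGST1, MGST3, GPX1, GPX7, PRDX2 and NQO1. The share of all features that did so was not counted, so this number does not set the members apart from other genes. On their probe-sets of the highest mean, GSTM3, GPX3 and GPX8 were at background in all 26 lines. With the probe-sets of the largest SD this held for GPX8, while GSTM3 was at background in 24 lines and GPX3 in 25. A level at background does not say whether the gene, its transcription or its messenger is missing, and probe-sets differ in their own background.

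GSTP1, the pi-class transferase best known for handling alkylating drugs, was at background in 4 lines. Its values were 7.17 in RPMI-8226, 7.18 in LP-1, 7.27 in SU-DHL-8 and 7.48 in KMS-11. Next came 7.51 in KMM-1, 8.18 in HBL-1, 9.11 in NU-DHL-1, 9.31 in MOLP-8 and 9.44 in OPM-2. A gap of 1.68 followed, and the other 17 lines lay between 11.13 in OCI-Ly19 and 13.20 in MC-116. The low values thus ran through a series of lines rather than forming a single group, and 6 of the 9 lines under the gap were MM lines. GSTP1 averaged 11.21 ± 1.76 (SD, n = 14) in DLBCL and 9.99 ± 2.24 (SD, n = 12) in MM lines, a difference that did not pass the test.

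GSTO1, an omega-class transferase that acts as a thiol transferase, was at background in 2 lines, both of MM, with 4.47 in OPM-2 and 5.12 in U-266. The remaining 24 lines lay between 9.65 in DB and 11.88 in OCI-Ly19, so that a gap of 4.54 log2 units separated them from the 2 lines. A second probe-set of GSTO1 followed the first over the 26 lines with r = 0.997. MGST1, a membrane-bound transferase and peroxidase, split the lines evenly. A total of 13 lines lay between 4.16 in OPM-2 and 6.45 in NCI-H929, and the other 13 between 9.47 in KMS-12-BM and 12.63 in KMS-12-PE. Of the lines at background for MGST1, 9 were DLBCL and 4 MM lines. MGST3, a membrane-bound relative, was under the level in NU-DHL-1 only, at 7.48 against 8.46 in the next line, FARAGE.

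**Figure D1:**
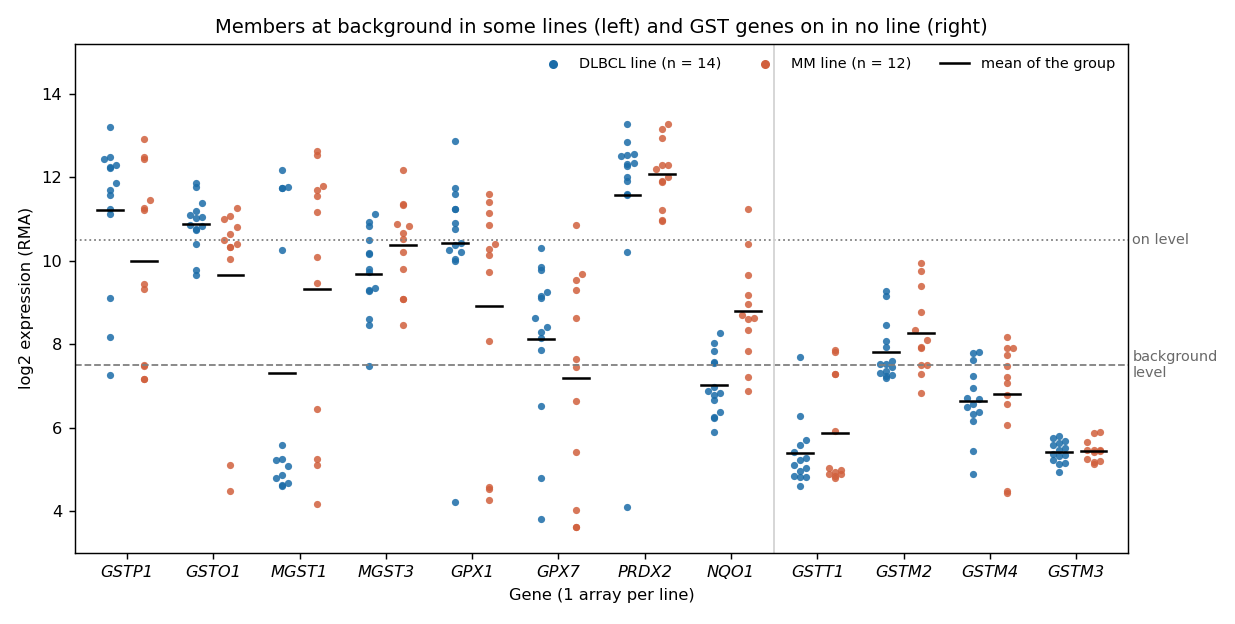
Log2 expression of 12 members in each of 26 lines (y axis), by gene (x axis). Points are lines, 14 DLBCL in blue and 12 MM in orange, bars are group means, the dashed line is the background level of 7.5 and the dotted line the level called on. GPX1 lies under 5 in 4 lines, GSTO1 is low in OPM-2 and U-266 only, and MGST1 falls into 13 low and 13 high lines, whereas GSTT1, GSTM2, GSTM4 and GSTM3 reach the dotted line in no line on the probe-sets shown.

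GPX1, the main cytosolic glutathione peroxidase, was at background in 4 lines, with 4.22 in DB, 4.27 in KMS-11, 4.53 in KMS-12-PE and 4.58 in OPM-2. The next line was MOLP-8 at 8.08, and the other lines lay between 9.73 and 12.87. The sister lines stood on opposite sides, as KMS-12-BM had 10.41. GPX1 has a single probe-set here, so that no second one can be set beside it. GPX7, an endoplasmic reticulum peroxidase, was at background in 9 lines, 6 of them MM lines, but its values were spread from 3.61 to 10.87 with no gap above 1.10. PRDX2, an abundant cytosolic peroxiredoxin, was at 4.10 in HBL-1 and at 10.22 or more in all other lines on the probe-set of the highest mean. Another PRDX2 probe-set put HBL-1 at 9.13, within its range of 8.97 to 11.06 in the other lines, so the low value of HBL-1 rests on the choice of probe-set. NQO1, the quinone reductase that NRF2 drives, was at background in 9 of 14 DLBCL and 2 of 12 MM lines.

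GSTP1, GPX1 and MGST1 had lines at background and lines called on in both diseases. A two-sided Fisher's exact test of the share of lines at background gave 0.238 for MGST1 and 0.306 for GSTP1 as well as GPX1, with 1 DLBCL and 3 MM lines each, and 0.408 for each after adjustment over the 8 members. The shares of NQO1 are a description, because KMS-11, an MM line, was the only line in which it was on. By line, OPM-2 was at background for 4 of the 8 members, namely GPX1, GPX7, GSTO1 and MGST1. The 5 lines DB, KMS-11, LP-1, NU-DUL-1 and U-266 were each at background for 3.

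The mu and theta GSTs, some of which are often lacking because the gene itself is deleted, differed in how the lines were spread. GSTT1 lay between 4.61 and 6.29 in 21 lines and, after the largest gap, had 7.29 in RPMI-8226, 7.30 in NCI-H929, 7.68 in U2932, 7.81 in U-266 and 7.87 in MOLP-8. Even the highest of these was under the level called on. GSTM2 ranged from 6.84 in KMS-12-PE to 9.94 in MOLP-8 without a gap above 0.39. GSTM4 ranged from 4.43 in OPM-2 to 8.16 in NCI-H929 and was at background in 19 lines. GSTM3 lay within 4.93 to 5.89 on the probe-set of the highest mean. Another GSTM3 probe-set, of lower mean, split the lines, with 3.34 to 4.55 in 24 lines and, after a gap of 4.06, 8.61 in NCI-H929 and 9.85 in KMS-11. The same lines were highest on the first probe-set, at 5.89 and 5.87, so what is said of GSTM3 rests on the choice of probe-set. The GSTM genes are close copies, and the GSTM2 probe-set is of a kind that can bind relatives, so a GSTM2 value may hold signal of other GSTM genes.

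The promoters of the members GSTP1, GSTO1, GPX1 and MGST1 are shown because these genes were at background in some lines and on in others. A promoter here is a window of 300 bases, 250 before and 50 after the start of the gene, from RefSeq on GRCh38.p14, and 30 of the 41 members had one. The capitals mark matches to TGACNNNGC, the pattern searched on both strands for the antioxidant response element to which NRF2 binds. A match is not a shown binding site.
GSTP1, chr11:67583562-67583861 (+ strand): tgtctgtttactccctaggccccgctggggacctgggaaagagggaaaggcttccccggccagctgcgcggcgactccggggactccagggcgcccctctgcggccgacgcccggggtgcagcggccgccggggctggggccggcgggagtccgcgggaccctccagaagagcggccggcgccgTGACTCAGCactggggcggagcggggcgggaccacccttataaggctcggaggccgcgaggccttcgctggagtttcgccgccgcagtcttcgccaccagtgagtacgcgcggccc
GSTO1, chr10:104254642-104254941 (+ strand): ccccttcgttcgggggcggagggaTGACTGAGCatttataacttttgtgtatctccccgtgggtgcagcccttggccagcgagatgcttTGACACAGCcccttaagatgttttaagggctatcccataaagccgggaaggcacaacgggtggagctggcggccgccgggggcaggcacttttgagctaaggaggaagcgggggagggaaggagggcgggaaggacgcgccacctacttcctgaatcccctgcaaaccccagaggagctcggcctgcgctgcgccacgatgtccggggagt
GPX1, chr3:49358304-49358603 (- strand): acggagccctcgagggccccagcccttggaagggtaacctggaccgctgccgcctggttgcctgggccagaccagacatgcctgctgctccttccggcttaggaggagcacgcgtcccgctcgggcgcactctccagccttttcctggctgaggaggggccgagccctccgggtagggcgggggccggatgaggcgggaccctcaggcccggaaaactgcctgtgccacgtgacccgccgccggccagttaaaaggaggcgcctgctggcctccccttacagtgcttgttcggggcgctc
MGST1, chr12:16347395-16347694 (+ strand): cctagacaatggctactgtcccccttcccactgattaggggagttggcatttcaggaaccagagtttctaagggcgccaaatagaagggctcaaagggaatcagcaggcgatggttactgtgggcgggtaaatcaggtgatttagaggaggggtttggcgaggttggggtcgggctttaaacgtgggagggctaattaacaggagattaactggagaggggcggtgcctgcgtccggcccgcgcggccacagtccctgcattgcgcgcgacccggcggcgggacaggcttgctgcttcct
GSTP1 held 1 match, beginning at base 185 of the window, GSTO1 held 2, at bases 25 and 90, and GPX1 and MGST1 held none. The window of NQO1, a gene that NRF2 drives, held none either, so a missing match says little. In total 5 of the 30 member windows (16.7%) held a match, those of GCLM, GSTP1, GSTO1, GSTA4 and TXNRD1, against 13.6% of 27305 promoters of the same length. The GSTP1 window counted 36 CG dinucleotides, that of GPX1 23, that of GSTO1 19 and that of MGST1 18, beside a median of 14 over all promoters. No methylation or binding was measured in these lines, and nothing about the lines without expression follows from the sequences.

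The comparison of the diseases asks which members differ between lines of MM and of DLBCL. PRDX4, NQO1, KEAP1, TXN and SRXN1 were higher in MM lines and TXN2 was lower, at an adjusted p under 0.05 in limma over all features. These are 5 of 40 members in the upward direction, where 5.49% of all features were called, and 1 of 40 in the downward direction, where 5.40% were called. The median difference over the 40 members was 0.11 and that over all features -0.02 log2 units. A total of 9 of 40 members (22.5%) had an unadjusted p under 0.05 in limma, beside 8274 of 33297 features.

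PRDX4, the peroxiredoxin of the endoplasmic reticulum, averaged 11.03 ± 0.71 (SD, n = 14) in DLBCL and 12.31 ± 0.57 (SD, n = 12) in MM lines. Its DLBCL values had a lowest, median and highest of 9.57, 11.05 and 12.20, and its MM values of 11.42, 12.28 and 13.69, the last in RPMI-8226. The ranges overlapped, and the difference was 1.28 ± 0.25 (SE, limma, adjusted p = 0.00109). NQO1 averaged 7.01 ± 0.73 (SD) in DLBCL and 8.80 ± 1.24 (SD) in MM lines. Its lowest, median and highest values were 5.91, 6.86 and 8.26 in DLBCL and 6.88, 8.67 and 11.23 in MM lines, where KMS-11 and AMO-1 stood highest. The ranges overlapped here too, and NQO1 was 1.79 ± 0.38 (SE, limma, adjusted p = 0.00244) higher in MM lines.

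SRXN1, the sulfiredoxin that repairs overoxidised peroxiredoxins, had a lowest, median and highest value of 6.84, 8.12 and 9.06 in DLBCL and 8.08, 8.77 and 9.74 in MM lines, and was 0.72 ± 0.21 (SE, limma, adjusted p = 0.0282) higher in the latter. TXN, the cytosolic thioredoxin, had 10.11, 11.62 and 13.22 in DLBCL and 11.67, 12.38 and 13.13 in MM lines, a rise of 0.84 ± 0.24 (SE, adjusted p = 0.0246). The highest single TXN value belonged to a DLBCL line, OCI-Ly3. KEAP1, which marks NRF2 for degradation, had 8.56, 9.30 and 9.85 in DLBCL and 9.16, 9.90 and 10.38 in MM lines and was 0.58 ± 0.12 (SE, adjusted p = 0.00271) higher. The mitochondrial thioredoxin TXN2 had 9.33, 9.71 and 9.99 in DLBCL and 8.93, 9.42 and 9.80 in MM lines and fell by 0.29 ± 0.10 (SE, adjusted p = 0.047), the smallest of the 6 differences. The groups overlapped for each of the 6 genes. Without MC-116 and AMO-1 only PRDX4, NQO1 and KEAP1 passed, with an adjusted p of 0.0537 for SRXN1, 0.0502 for TXN and 0.0886 for TXN2. The TXN2 call was kept in 7 of 26 fits that left out 1 line and in 1 of 8 other alternatives.

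**Figure D2:**
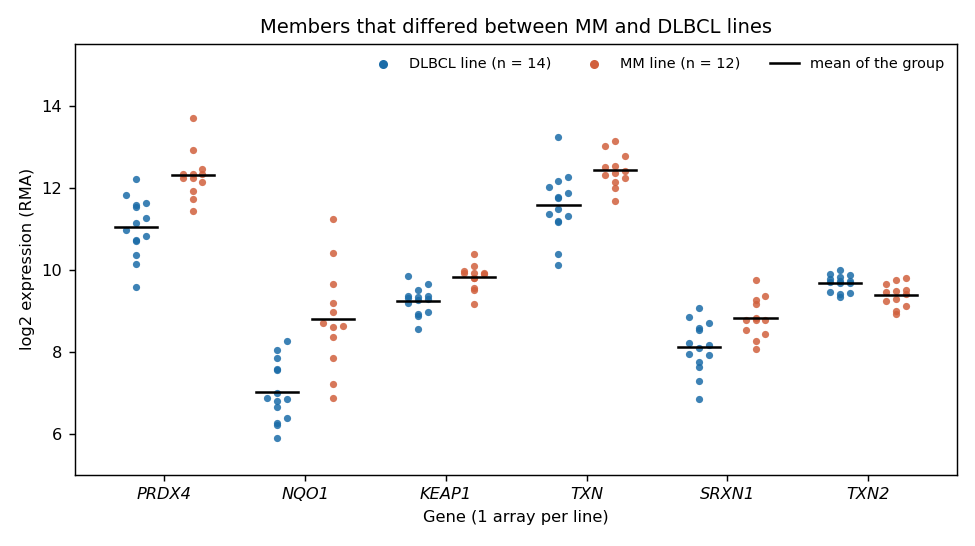
Log2 expression (y axis) of the 6 members that differed between the diseases (x axis), with 1 point per line, DLBCL in blue (n = 14) and MM in orange (n = 12), and bars for group means. The groups overlap for each gene, and the mean of NQO1 rises from 7.01 to 8.80.

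None of the 6 genes of glutathione synthesis and supply passed, and GSS alone had a higher mean in MM lines. GCLC and GCLM, the subunits of the rate-limiting ligase, differed by -0.32 ± 0.22 and -0.06 ± 0.23 (SE). GSS, which adds glycine, differed by 0.15 ± 0.19 (SE) and GGCT, which breaks down gamma-glutamyl peptides, by -0.12 ± 0.19 (SE). GSR, the reductase that returns oxidised glutathione to its thiol form, differed by -0.46 ± 0.17 (SE, adjusted p = 0.079), with 8.61 to 9.81 in DLBCL and 7.74 to 9.49 in MM lines. SLC7A11, the importer of cystine, varied from 6.34 to 10.38 in DLBCL and from 4.98 to 10.24 in MM lines, and its difference of -0.58 ± 0.65 (SE) was smaller than this spread.

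None of the 5 glutathione peroxidases and none of the 12 transferases passed. GPX4, which reduces lipid peroxides, ranged from 10.63 to 12.45 in DLBCL and from 10.73 to 13.02 in MM lines, was on in all 26, and differed by 0.16 ± 0.22 (SE). Members with lines at background had wide errors, with a difference of -1.50 ± 0.91 for GPX1, -0.94 ± 0.84 for GPX7, -1.22 ± 0.76 for GSTP1, -1.22 ± 0.62 for GSTO1 and 2.01 ± 1.23 for MGST1 (SE). GSTA4, a transferase for products of lipid peroxidation, differed by 0.73 ± 0.39, GSTZ1 by -0.47 ± 0.25 and GSTK1 by 0.14 ± 0.22 (SE). MGST2, which ranged from 6.34 to 9.46, differed by 0.26 ± 0.39 and MGST3 by 0.67 ± 0.40 (SE). The mu and theta genes GSTM2, GSTM3, GSTM4 and GSTT1 differed by 0.46 ± 0.32, 0.03 ± 0.10, 0.16 ± 0.40 and 0.50 ± 0.40 (SE).

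Of the 10 measured thioredoxins, peroxiredoxins and their partners, 3 rose and 1 fell, as above. PRDX1 differed by -0.65 ± 0.27 (SE, adjusted p = 0.126), and LP-1 was lowest at 9.91 while the other lines had 11.56 or more. TXNRD2, the mitochondrial reductase, differed by 0.44 ± 0.18 (SE, adjusted p = 0.114), while TXNRD1, its cytosolic counterpart, differed by 0.06 ± 0.17 (SE). PRDX3, of mitochondria, and PRDX6 differed by -0.02 ± 0.15 and -0.09 ± 0.13 (SE). The superoxide dismutases SOD1 and SOD2 and catalase (CAT) differed by 0.08 ± 0.16, -0.21 ± 0.33 and -0.39 ± 0.30 (SE), and none passed. SOD2 stood on a single probe-set with a median of 6.39 in DLBCL and 6.23 in MM lines. It was at background in all lines but OCI-Ly19, SU-DHL-8 and KMS-12-BM, so its values say little about SOD2. NFE2L2, which encodes NRF2, differed by 0.39 ± 0.23 and HMOX1, the haem oxygenase, by 0.50 ± 0.44 (SE). HMOX1 reached 10.43 in OCI-Ly3, the line grown with 2-mercaptoethanol, against 8.58 in the next line, U-266, and the part of the medium in this was not tested.

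**Figure D3:**
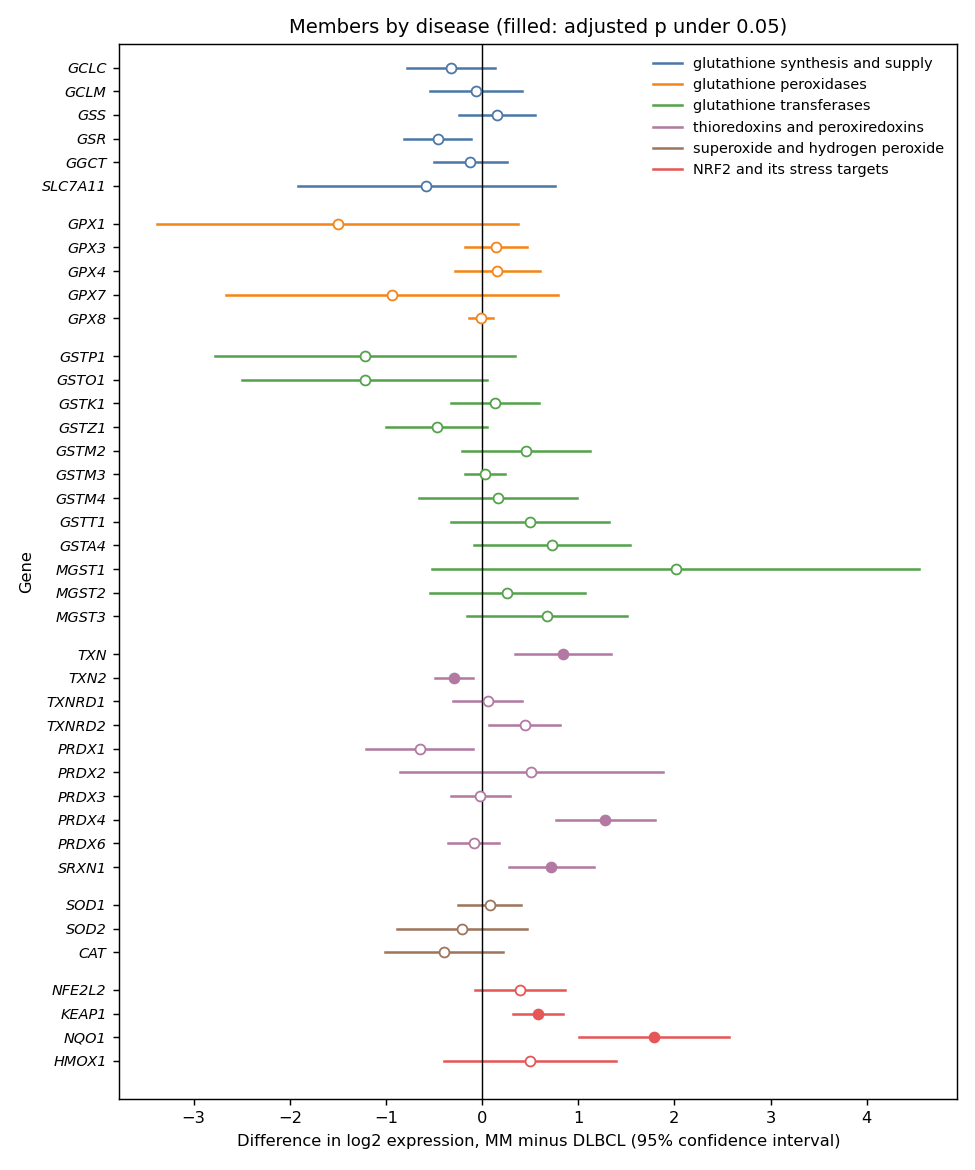
Difference in log2 expression, MM minus DLBCL (x axis), for the 40 measured members (y axis) in the order of their roles, from limma over 26 lines. Points are estimates, bars 95% confidence intervals and filled points an adjusted p under 0.05. The filled points are TXN, TXN2, PRDX4, SRXN1, KEAP1 and NQO1, all among the thioredoxins and peroxiredoxins or NRF2 and its targets.

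Genes of neighbouring pathways, 79 measured in 5 lists, are given for comparison. The lists were chosen with earlier results of these data known, so their counts are descriptions. Of all features, 5.49% were called higher and 5.40% lower in MM lines. In the list of oxidative folding in the endoplasmic reticulum 9 of 12 genes rose in MM lines and none fell. This list is wider than its name, as it holds genes that do not form disulfide bonds, among them SEL1L, DNAJB9 and MANF. The disulfide isomerase P4HB was 1.20 ± 0.15 (SE, limma, adjusted p = 7e-06) higher, SEL1L 1.54 ± 0.23, DNAJB9 1.95 ± 0.30, MANF 1.09 ± 0.19 and PDIA6 0.97 ± 0.17 (SE). Among 19 other NRF2 targets and regulators 6 rose and none fell. The epoxide hydrolase EPHX1 was 2.23 ± 0.31 higher, the carbonyl reductase CBR1 2.74 ± 0.64, the biliverdin reductases BLVRA 2.28 ± 0.55 and BLVRB 1.10 ± 0.34 and the ferritin light chain FTL 0.70 ± 0.18 (SE). Of 20 other glutathione genes, HAGH rose by 1.41 ± 0.22 and ESD fell by 1.28 ± 0.25 (SE). Of 20 other thiol redox genes GLRX3 and TXNDC17 fell, by 0.74 ± 0.22 and 0.65 ± 0.20 (SE), and of 8 genes of NADPH supply ME1 rose by 3.34 ± 0.85 (SE). Beside these differences, 2 of 14 proliferation genes (CDK1 and PCNA) were lower in MM lines, and their part in the results was not tested.

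The drug comparisons ask whether a member follows resistance to cyclophosphamide (C) rather than to doxorubicin (H) or vincristine (O). Resistance was given as AUC0, an area under the dose response curve counted only where growth stays positive, which is higher in a more resistant line, and as tertile classes of AUC0 within each disease. C was applied as mafosfamide, which needs no activation in the liver. AUC0 of C was known for 12 DLBCL and 12 MM lines, that of H for 14 and 12, and that of O for 12 and 12. Within DLBCL the AUC0 of C went with that of H at r = 0.50 (n = 12) and with that of O at r = 0.50 (n = 11). Within MM these were r = 0.31 and -0.18 (n = 12 each).

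No member passed the adjusted threshold in limma in any of the 24 drug comparisons, where at most 1 feature of the whole table was called (0% or 0.003% of features). The smallest adjusted p of a member was 0.289. Therefore all values below are descriptions, and the members with an unadjusted p under 0.05 are given beside the share of all features with such a p. Slopes are differences in log2 expression for every 100 units of AUC0.

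For the slope on AUC0 of C with a disease term, 3 of 40 members had an unadjusted p under 0.05, beside 3.97% of features. These were GSS at 0.42 ± 0.18 (SE), GPX4 at 0.48 ± 0.21 and GSTA4 at 0.87 ± 0.38. Within DLBCL there were 5 of 40 beside 4.71% of features (GSTO1, SLC7A11, GSS, GPX1 and PRDX4), within MM 1 of 40 beside 3.51% (GSTZ1), and for the difference of the slopes between the diseases 1 of 40 beside 4.47% (GPX1). For the classes of C the counts were 2 of 40 beside 4.44% with a disease term (GSTA4 and GPX4), 4 of 40 beside 4.16% within DLBCL (GSTO1, SLC7A11, PRDX4 and GSTP1) and 3 of 40 beside 4.11% within MM (GCLC, GSTA4 and GPX1). GPX1 and PRDX4 were named here after their values were seen.

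In DLBCL lines GSTO1 had 9.65 (DB), 10.40 (RIVA), 10.73 (U2932) and 10.83 (FARAGE) in the lines resistant to C, and 11.05 (SU-DHL-5), 11.38 (NU-DHL-1), 11.77 (NU-DUL-1) and 11.88 (OCI-Ly19) in the sensitive lines. The classes did not overlap, and the slope was -0.77 ± 0.25 (SE, unadjusted p = 0.0105, limma adjusted p = 0.988). SLC7A11 had 7.85 (U2932), 8.06 (FARAGE), 8.98 (RIVA) and 10.18 (DB) in the resistant and 6.34 (NU-DHL-1), 6.43 (NU-DUL-1), 6.96 (SU-DHL-5) and 7.84 (OCI-Ly19) in the sensitive lines, with a slope of 1.52 ± 0.51 (SE). These were 2 of 40 members without overlap, beside 2.51% of features. GSS had a slope of 0.63 ± 0.25 (SE) with classes that overlapped. The GPX1 slope of -2.02 ± 0.85 (SE) rested on DB, the line of the highest AUC0 and at background for GPX1, as it was -0.58 without DB. The slope of GSS was 0.34 without SU-DHL-5 and 0.40 without DB, and its slope with a disease term was 0.22 and 0.26 without these lines. Without DB the slopes of GSTO1 and SLC7A11 were -0.59 and 1.27.

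The same genes are set beside the other drugs in DLBCL lines. GSTO1 had slopes of -0.82 ± 0.25 (SE) for H and -1.41 ± 0.58 for O, SLC7A11 of 1.27 ± 0.63 and 1.34 ± 1.34, and GSS of 0.27 ± 0.31 and 1.36 ± 0.56. AUC0 of O ran from 54 to 131 in DLBCL lines and that of C from 165 to 346, so slopes on O reach beyond the measured span. The slope of C against the mean of H and O, in 1 model with AUC0 of each drug in SD units, was -0.07 ± 0.24 (SE) for GSTO1, 0.59 ± 0.58 for SLC7A11 and 0.24 ± 0.26 for GSS over 11 DLBCL lines. None of these differences from the other drugs exceeded its error at this number of lines by more than 1.5 times.

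**Figure D4:**
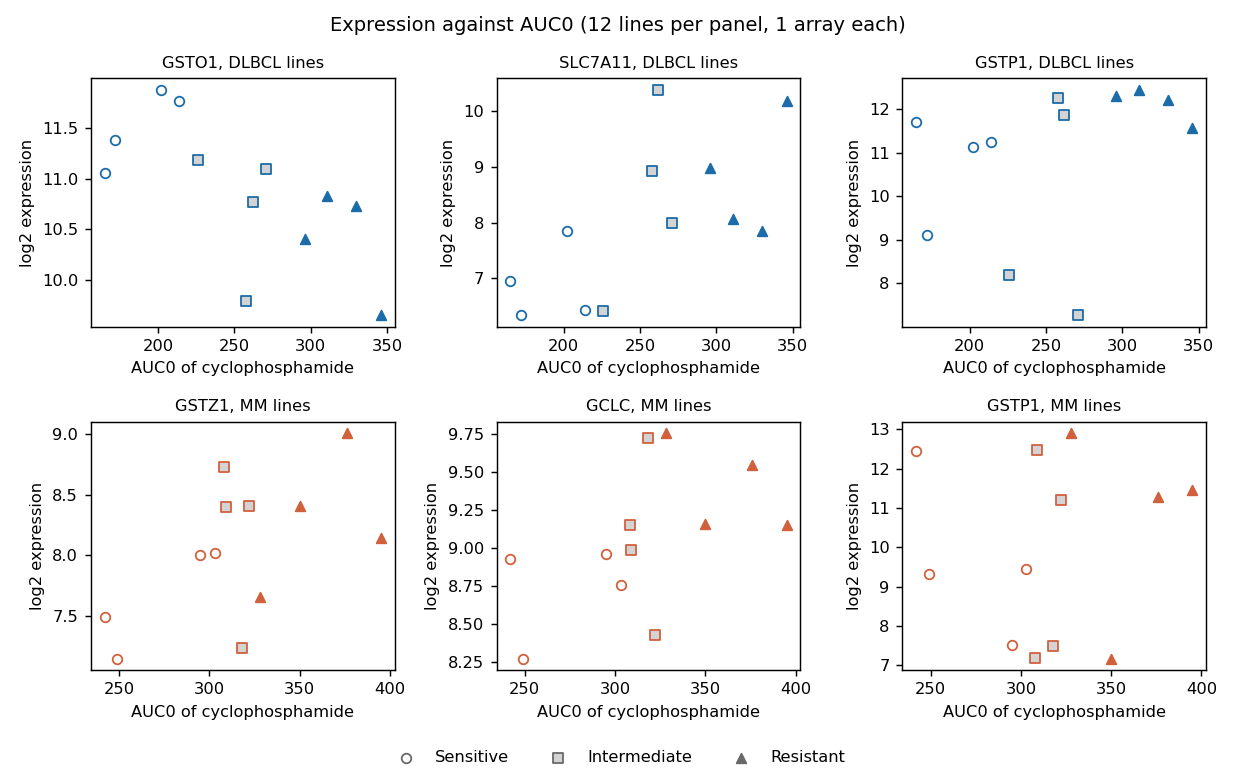
Log2 expression (y axes) against AUC0 of cyclophosphamide (x axes, higher in more resistant lines) for GSTO1, SLC7A11 and GSTP1 in 12 DLBCL lines and GSTZ1, GCLC and GSTP1 in 12 MM lines. Symbols give the class of each line, and scales differ between panels. GSTO1 is 9.65 in DB, the most resistant DLBCL line, whereas low and high GSTP1 values occur across AUC0 in MM lines.

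In MM lines the genes of the smallest p were GSTZ1, with a slope on AUC0 of C of 0.77 ± 0.31 (SE, unadjusted p = 0.0312 in limma), GCLM with 0.90 ± 0.44 and GCLC with 0.52 ± 0.27. GCLC had 9.15 (AMO-1), 9.16 (RPMI-8226), 9.55 (U-266) and 9.76 (KMS-12-BM) in the resistant lines, and 8.27 (MOLP-8), 8.76 (OPM-2), 8.92 (MM1S) and 8.96 (KMM-1) in the sensitive lines. GCLC and GPX1 were the 2 of 40 members whose classes did not overlap in MM lines, beside 2.71% of features. GPX1 ran from 10.41 to 11.41 in the resistant and from 4.58 in OPM-2 to 10.15 in MM1S in the sensitive lines, whereas KMS-11 and KMS-12-PE, also at background, were intermediate. Of the MM lines at background for GSTO1, U-266 was resistant and OPM-2 sensitive to C. For H the slopes of GSTZ1, GCLM and GCLC were 0.36 ± 0.42, 0.98 ± 0.49 and 0.60 ± 0.30 (SE), and for O 0.17 ± 0.61, -1.31 ± 0.71 and -0.50 ± 0.46. The slope of C against the mean of H and O was 0.29 ± 0.20 for GSTZ1, 0.23 ± 0.22 for GCLM and 0.11 ± 0.15 for GCLC (SE) over 12 lines.

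GSTP1 had a slope on AUC0 of C of 0.98 ± 0.81 (SE) in DLBCL and 0.29 ± 1.47 in MM lines. Of its 4 lines at background, SU-DHL-8, KMS-11 and LP-1 were intermediate for C and RPMI-8226 was resistant. KMM-1, at 7.51 just above the background level, was sensitive to C, so the classes of the low lines depend on that level. GSTP1 ran from 11.57 to 12.44 in the resistant and from 9.11 to 11.70 in the sensitive DLBCL lines, and from 7.17 to 12.91 and 7.51 to 12.44 in the MM lines, so the classes overlapped in both diseases. For H the slopes of GSTP1 were 1.03 ± 0.88 and -1.64 ± 1.57 and for O -2.26 ± 1.75 and -3.54 ± 2.08 (SE) in DLBCL and MM lines. With a disease term, GSTP1 was among 3 of 40 members with an unadjusted limma p under 0.05 for O, beside 1892 of 33297 features. All 3 had negative slopes (PRDX1, TXN and GSTP1). The slope of C against the other drugs was 0.95 ± 0.73 in DLBCL and 0.96 ± 0.82 in MM lines (SE) for GSTP1. In DLBCL it was 0.49 without HBL-1 and 0.63 without DB.

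No mu or theta gene had an unadjusted p under 0.05 for C. GSTM2 had slopes on C of -0.37 ± 0.34 and 0.39 ± 0.65 (SE) in DLBCL and MM lines, GSTM3 of -0.05 ± 0.13 and 0.10 ± 0.17, GSTM4 of 0.09 ± 0.41 and 0.48 ± 0.82, and GSTT1 of 0.16 ± 0.40 and 0.27 ± 0.85. Among the 5 lines of higher GSTT1, U2932, RPMI-8226 and U-266 were resistant to C, NCI-H929 was intermediate and MOLP-8 was sensitive. Against the other drugs, GSTM2 had -0.19 ± 0.35 in DLBCL and 0.68 ± 0.31 in MM lines (SE), GSTM4 0.12 ± 0.38 and 0.73 ± 0.45, GSTM3 -0.01 ± 0.15 and -0.03 ± 0.11, and GSTT1 0.38 ± 0.40 and 0.37 ± 0.53. GSTM2 had a negative slope on H within MM, with an unadjusted limma p under 0.05, as 1 of 2 such members beside 3.90% of features. Its value against the other drugs in MM lines therefore cannot be read as a slope on C.

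**Figure D5:**
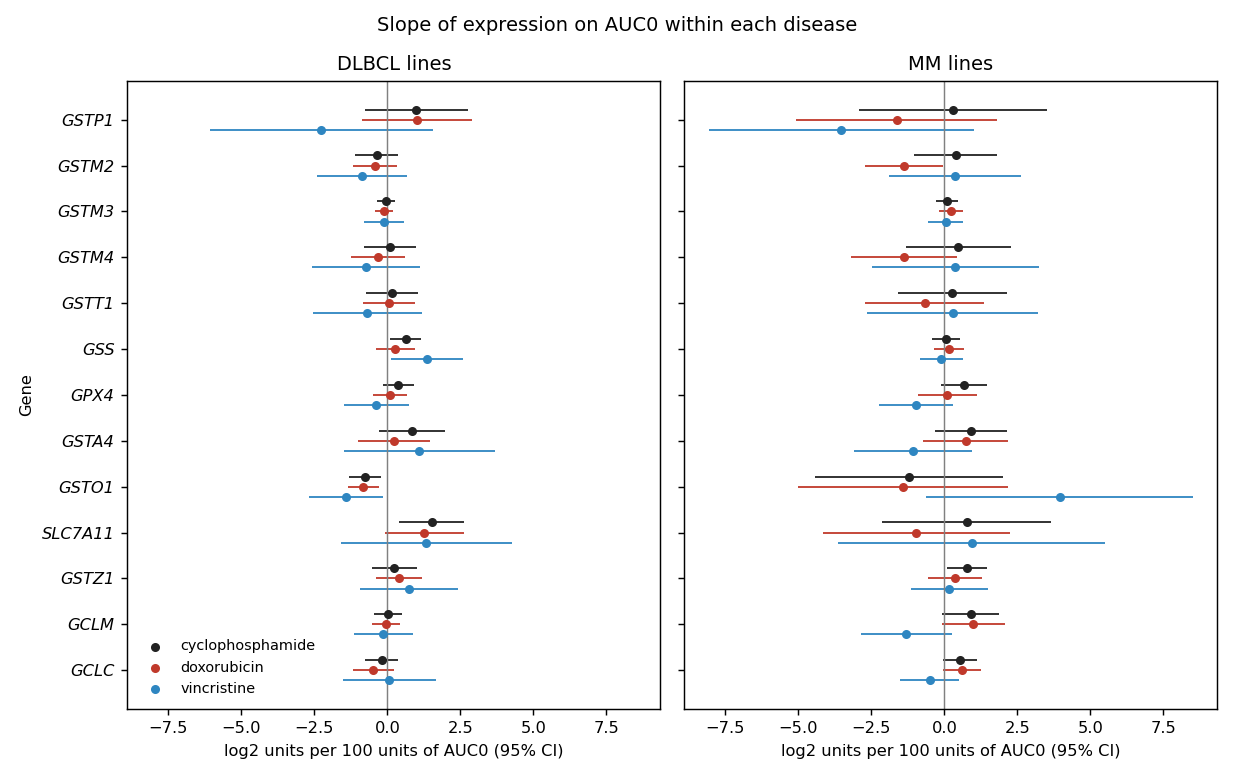
Slope of log2 expression on AUC0 (x axes, for every 100 units) for 13 members (y axis) within DLBCL and MM lines, for cyclophosphamide (black), doxorubicin (red) and vincristine (blue). Points are limma estimates and bars 95% confidence intervals. The GSTO1 intervals lie under 0 for each drug in DLBCL lines, and most other intervals include 0.

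When C was set against the other drugs over all members, 1 of 40 had an unadjusted p under 0.05 with a disease term, beside 3.31% of features, namely GPX4 at 0.38 ± 0.15 (SE). Within DLBCL there were 2 of 40 beside 3.22% of features, MGST3 at -0.90 ± 0.29 and PRDX6 at 0.25 ± 0.11 (SE), and within MM 1 of 40 beside 3.78%, GPX1 at 2.15 ± 0.87 (SE). With a disease term, H had 1 of 40 by AUC0 (GSTM2) beside 1655 of 33297 features. By class H had 3 of 40 (GSTM2, GSTO1 and GPX1) beside 2045 features. O had 3 of 40 by AUC0 (PRDX1, TXN and GSTP1) beside 1892 features. By class O had 4 of 40 (MGST3, TXN, NQO1 and SOD1) beside 1179 features. For the difference of the slopes between the diseases H had 4 of 40 (MGST3, GCLC, SOD2 and NQO1) beside 1690 features. For O this difference had 3 of 40 (GSTO1, GSS and GGCT) beside 1372 features. For H within DLBCL the counts were 3 of 40 beside 5.47% of features by AUC0 (GSTO1, NQO1 and SOD2) and 6 of 40 beside 7.34% by class (NQO1, GCLC, SLC7A11, GSTO1, PRDX3 and PRDX2). For H within MM they were 2 of 40 beside 3.90% by AUC0 (MGST3 and GSTM2, both with negative slopes) and 7 of 40 beside 6.99% by class (MGST3, GSTM2, GGCT, TXNRD1, GCLC, GSTM4 and SLC7A11). For O within DLBCL they were 4 of 40 beside 4.29% by AUC0 (MGST3, GSS, GSTO1 and TXN) and 4 of 40 beside 3.54% by class (MGST3, GSTM4, TXN and GSTO1). For O within MM they were 4 of 40 beside 4.83% by AUC0 (PRDX1, SOD1, GGCT and KEAP1) and 2 of 40 beside 3.05% by class (SOD1 and GGCT). The names in these counts follow from the values, and the counts were not tested against each other. Classes without overlap occurred for the other drugs too. In DLBCL lines GCLC and NQO1 were lower in all lines resistant to H, and MGST3 was higher in all lines resistant to O. In MM lines SOD1 was lower in all lines resistant to O. The share of all features without overlap was not counted for H and O. In the 5 lists of neighbouring pathways no gene passed the adjusted threshold in any drug comparison.

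The members that went together over values centred within each disease were described by correlation across 26 lines. Among 780 pairs the highest were PRDX2 with CAT (r = 0.72), GSTM2 with GSTM4 (r = 0.66), GSTM2 with MGST3 (r = 0.62), GPX4 with SOD1 (r = 0.56) and GSTK1 with SOD1 (r = 0.55). HBL-1 was lowest for both PRDX2 and CAT, and r was 0.42 without the 2 lines farthest from their group mean of PRDX2. The second pair joins genes whose probe-sets may share signal.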

How the data were processed

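Each of the 26 cell lines gave 1 array. The deposited values are log2 values that the authors made with RMA (the submitters' processing notes name R 3.0.1 and affy), which corrects the background, makes the arrays comparable and sums the probes of a probe-set. The sources do not state which arrays were normalised together. The values ran from 2.41 to 15.09, and array medians from 5.65 to 5.72. Counting depth does not apply, and precision is set by how many arrays there are.

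AUC0 and classes came from the labels. The class of doxorubicin was taken from the entry after its AUC0, as its tag names another drug, and the classes equalled tertiles of AUC0 in every line. After removal of 62 control probe-sets, a gene stood by the single-symbol probe-set of the highest mean over all lines, by the platform's annotation, while unnamed or multiply named probe-sets stayed in the table without a name. limma 3.58.1 (R 4.3.3) was run over all 33297 features with Benjamini-Hochberg adjustment and a threshold of 0.05, for the diseases, for class and AUC0 with a disease term and within each disease, for their interaction, and for cyclophosphamide against the mean of the other drugs. Other steps used Python 3.11.15 with scipy 1.17.1, and the fitting step was tested on simulated data in which known changes had been placed. P-values measure the spread between lines.

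The members and lists were chosen with earlier results of these data known. Named in the drug comparisons were GSTP1, GSTM2, GSTM3, GSTM4 and GSTT1, and the 3 members of the smallest p for the cyclophosphamide slope with a disease term and within each disease. Between the diseases, members past the threshold were named first, with the remaining members by role, and up to 5 genes of each other list and direction. Alternatives were other probe-sets, dim probe-sets left out, arrays centred, another prior, MM values scaled to the SD of DLBCL, single lines or line pairs left out, and other background levels.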

Additional observations from a re-analysis of the deposited data

Results flagged for a closer look

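Among the 52 groups formed by 13 named members and the resistant or sensitive lines of each disease for cyclophosphamide, 4 held a line far from the others by Dixon's test, where chance gives about 1 in 20. In each group of 4 resistant lines, GPX4 was 13.02 in U-266 with the next MM line at 11.81, and GSTO1 was 5.12 in U-266 with the next at 10.40. Among resistant DLBCL lines GSTM2 was 8.46 in RIVA with the next at 7.59, and GSTT1 was 7.68 in U2932 with the next at 4.85. No difference of a slope between the diseases passed the adjusted threshold in limma for a named member.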

How the results depend on the processing

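With 1 array per line and 4 or 5 lines per class, the errors were wide in members that vary widely, such as MGST1 and SLC7A11, and a missed threshold does not show equal expression. No member was called in any drug comparison under any alternative (565 fits, smallest adjusted p 0.175). Between the diseases the 6 called members became 3 without MC-116 and AMO-1, and the 1829 higher and 1799 lower features became 6285 in all when each probe-set was tested separately and 1925 without dim probe-sets. PRDX4, NQO1 and KEAP1 passed in all 8 alternatives and all 26 fits without 1 line, TXN in 6 and 26, SRXN1 in 7 and 24 (lost without KMS-11 or MM1S) and TXN2 in 1 and 7. TXN missed with the probe-set of the largest SD (0.63, adjusted p = 0.104). The members at background in some lines and on in others changed with the level and the probe-set. GPX7 was lost at the 99th percentile. GSTP1 and MGST3 were lost and HMOX1 and SLC7A11 gained at the 90th, and MGST3 was lost and GSS and HMOX1 gained with the probe-sets of the largest SD. The low MGST3 value, 7.48 in NU-DHL-1, lies just under the level. The number of members past Fisher's exact test was 0 at the 95th percentile, 1 at the 99th and 1 at the 90th, in both cases NQO1, which was called on in MM lines only, so that nothing rests on this test. 
Values near 0 changed sign without any call, and the cause was not tested. For GSTM3 the slope of C against the other drugs was 6.16e-05 with centred arrays and 0.00494 without MC-116 and AMO-1, and with the probe-set of the largest SD it was 0.10 within DLBCL, where its slope on C was 0.18. Without MC-116 and AMO-1 the slope on C within MM was -0.42 for GSTP1 and -0.28 for GSTM2. Of 70 drug values of named members, 51 moved by over 1.5 times or changed sign when a single line was left out, none of them called. With each line left out in turn, the slope on C ranged from -0.35 to 0.11 for GSTM2, -0.071 to 0.043 for GSTM3 and -0.11 to 0.48 for GSTT1 with a disease term. Within DLBCL it ranged from -0.19 to 0.0079 for GSTM3, -0.21 to 0.45 for GSTM4 and -0.37 to 0.42 for GSTT1, and within MM from -0.42 to 1.65 for GSTP1, -0.28 to 1.22 for GSTM2 and -0.37 to 1.22 for GSTT1. The slope of C against the other drugs ranged from -0.035 to 0.039 for GSTM3 with a disease term. Within DLBCL it ranged from -0.32 to 0.059 for GSTM2, -0.075 to 0.097 for GSTM3, -0.13 to 0.28 for GSTM4, -0.039 to 1.37 for GSTT1 and -0.26 to 0.16 for GSTO1, and within MM from -0.0701 to 0.0399 for GSTM3 and -0.013 to 1.37 for GSTT1. The slope of GSTZ1 on O within MM ranged from -0.73 to 0.65. No paired analysis of the diseases was possible, because each line gave 1 array and no MM line is matched to a DLBCL line.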
